A study of Homo sapiens with 9 samples.

Results

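Messenger RNA was compared between AC16 cells kept in high glucose with chrysin and AC16 cells kept in low glucose. AC16 is a human cell line that the labels use as a cardiomyocyte model, and chrysin is a plant flavonoid. Each group had 3 libraries of polyA RNA. A further 3 libraries came from high glucose without chrysin. They are used here to place values beside the comparison, and they also enter the shared estimate of spread behind its p-values. The series' title puts the work in the setting of diabetic cardiomyopathy, ferroptosis and the desaturase SCD1. Every gene with a mean of at least 0.5 FPKM (a read abundance divided by transcript length and by library depth) in either of the 2 groups was taken, which gave 16760 of the 60671 genes in the deposited table. No label states the glucose concentrations, the chrysin dose, the exposure time or a vehicle.

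The 2 groups differ in both the glucose level and chrysin, and no group in low glucose with chrysin is among the samples analysed here. A difference between them can therefore not be assigned to glucose or to chrysin from this comparison alone. The differences of high glucose against low glucose, and of high glucose with chrysin against high glucose, are given beside single genes for that reason. These 3 comparisons share libraries, so they are not independent of each other. Nothing in the labels says that the 3 libraries of a group came from separate cultures, so the p-values rest on a spread among libraries that could be purely technical.

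The 9 libraries held between 18171842 and 23024300 reads, recovered from the steps of the FPKM values. Reads on mitochondrially encoded genes made up 3.80% to 3.89% of each chrysin library, against 2.79% to 2.90% in low glucose and 2.80% to 3.04% in high glucose. Between 24498 and 25321 genes were above 0 in the chrysin libraries, against 23206 to 23709 in low glucose. High glucose replicate 1 stood further from the other high glucose libraries than any other pair of replicates did, and it enters the high glucose values given for orientation and the shared estimate of spread. Of 25 cardiomyocyte markers, 20 averaged under 0.5 FPKM in every group, TNNT2, MYH6, MYH7, TTN and ACTN2 among them, and 5 were listed at 0 in all 9 libraries. Of 15 fibroblast markers only PDPN was at 0, and their summed level was 7803 to 8099 FPKM in low glucose and 6440 to 6604 FPKM with chrysin. The cardiomyocyte markers that passed the level filter, 5 in number, were MYL3, ATP2A2, NPPB, GATA4 and HAND2. The summed level of the cardiomyocyte markers was 280 to 288 FPKM in low glucose and 204 to 210 FPKM with chrysin. Most sarcomere markers thus did not bear out the labelled cardiomyocyte identity, and the cells are called AC16 cells throughout.

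Several stress programs recur below. When unfolded proteins accumulate in the endoplasmic reticulum (ER), the sensors ATF6, IRE1 and PERK raise ER chaperones and, through the transcription factor ATF4, genes of amino acid supply and the pro-death factor DDIT3. Low glucose is a classical trigger, because glucose feeds the N-glycosylation that protein folding in the ER needs. HIF factors raise glycolytic and angiogenic genes when oxygen is low, HSF1 raises cytosolic chaperones after heat or protein damage, and MondoA raises TXNIP when glucose phosphates accumulate.

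In total 8689 of the 16760 genes (51.8%) differed between high glucose with chrysin and low glucose at an adjusted p under 0.05 (limma on log2(FPKM + 0.5), Benjamini-Hochberg adjustment over all genes tested). Of these, 5065 (30.2%) were higher with chrysin and 3624 (21.6%) were lower. Most changes were small. The median absolute log2 fold change of the called genes was 0.40, and 5492 of them (63.2%) changed by less than 0.5. A difference of at least 1 on the log2 scale was reached by 455 higher genes (2.71%) and 274 lower genes (1.63%), and one of at least 2 by 29 higher and 20 lower genes. FPKM values of the 2 groups did not overlap for 10177 genes (60.7%). The median over all genes tested was 0.05, the value against which each gene list below is set.

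The same fit called 4011 genes (23.9%) in high glucose against low glucose and 7792 genes (46.5%) in high glucose with chrysin against high glucose. The median absolute log2 difference was 0.26 for the chrysin group against low glucose and 0.14 for high glucose against low glucose. Long noncoding genes had few lower calls, with 617 of 2399 (25.7%) higher with chrysin, 204 (8.5%) lower and a median of 0.17. Both shares were below the 30.2% higher and 21.6% lower of all genes tested. Protein-coding genes were more even, with 4124 of 12532 (32.9%) higher, 3253 (26%) lower and a median of 0.03. Of the genes tested, 1153 passed the level filter through the chrysin group only and 565 through the low glucose group only. The 326 genes whose higher group mean lay from 0.5 to 0.55 FPKM had a median absolute log2 difference of 0.33, and the 375 untested genes from 0.45 to 0.5 FPKM had 0.29.

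**Figure D1:**
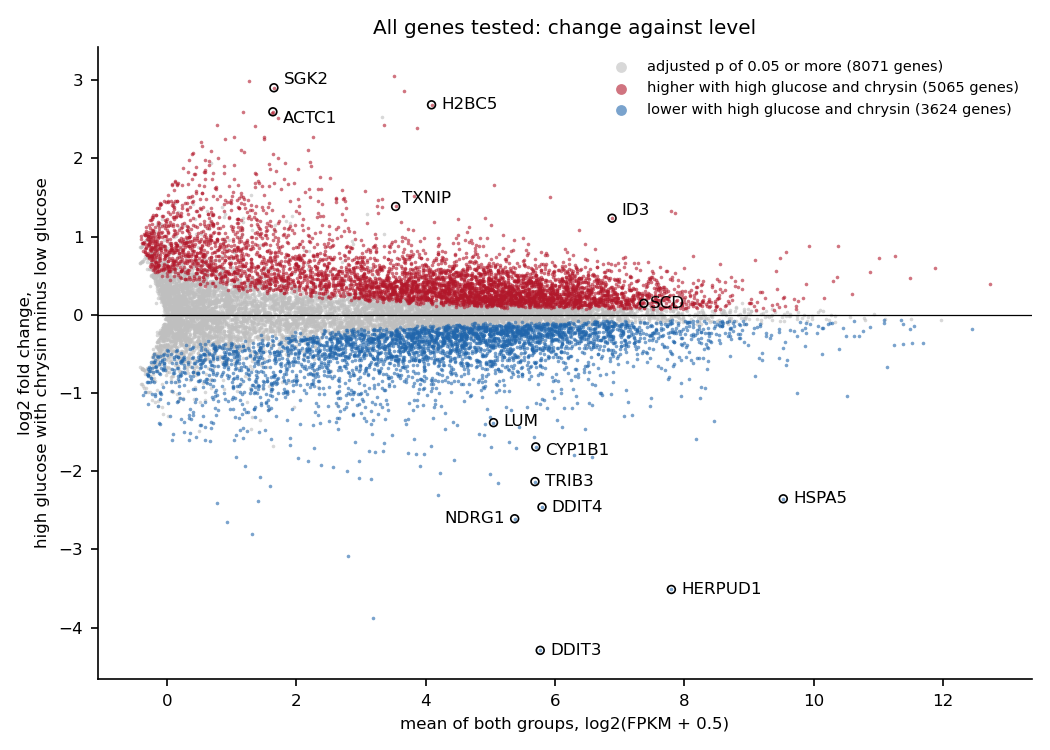
Log2 fold change of high glucose with chrysin against low glucose (vertical axis, log2(FPKM + 0.5) scale) against the mean level over the 6 libraries (horizontal axis) for the 16760 genes tested. Red points are the 5065 genes called higher, blue points the 3624 called lower and grey points those not called; DDIT3 and HERPUD1 are among the largest falls.

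Gene lists were described by how many members were called in each direction and by their median. For calls in high glucose with chrysin against low glucose the background was 30.2% higher and 21.6% lower over all genes tested. Among 37 lists of pathways and complexes, the medians ran from -0.93 to 1.05. Lowest were the ATF4 targets at -0.93, the aryl hydrocarbon receptor list at -0.82 and the hypoxia-induced genes at -0.51. Highest were the heat shock list and the mixed list of metallothionein and zinc genes at 0.43, mitochondrially encoded mRNAs at 0.60 and replication histones at 1.05. Members that the naming rule did not select were picked as examples after their values had been seen.

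**Figure D2:**
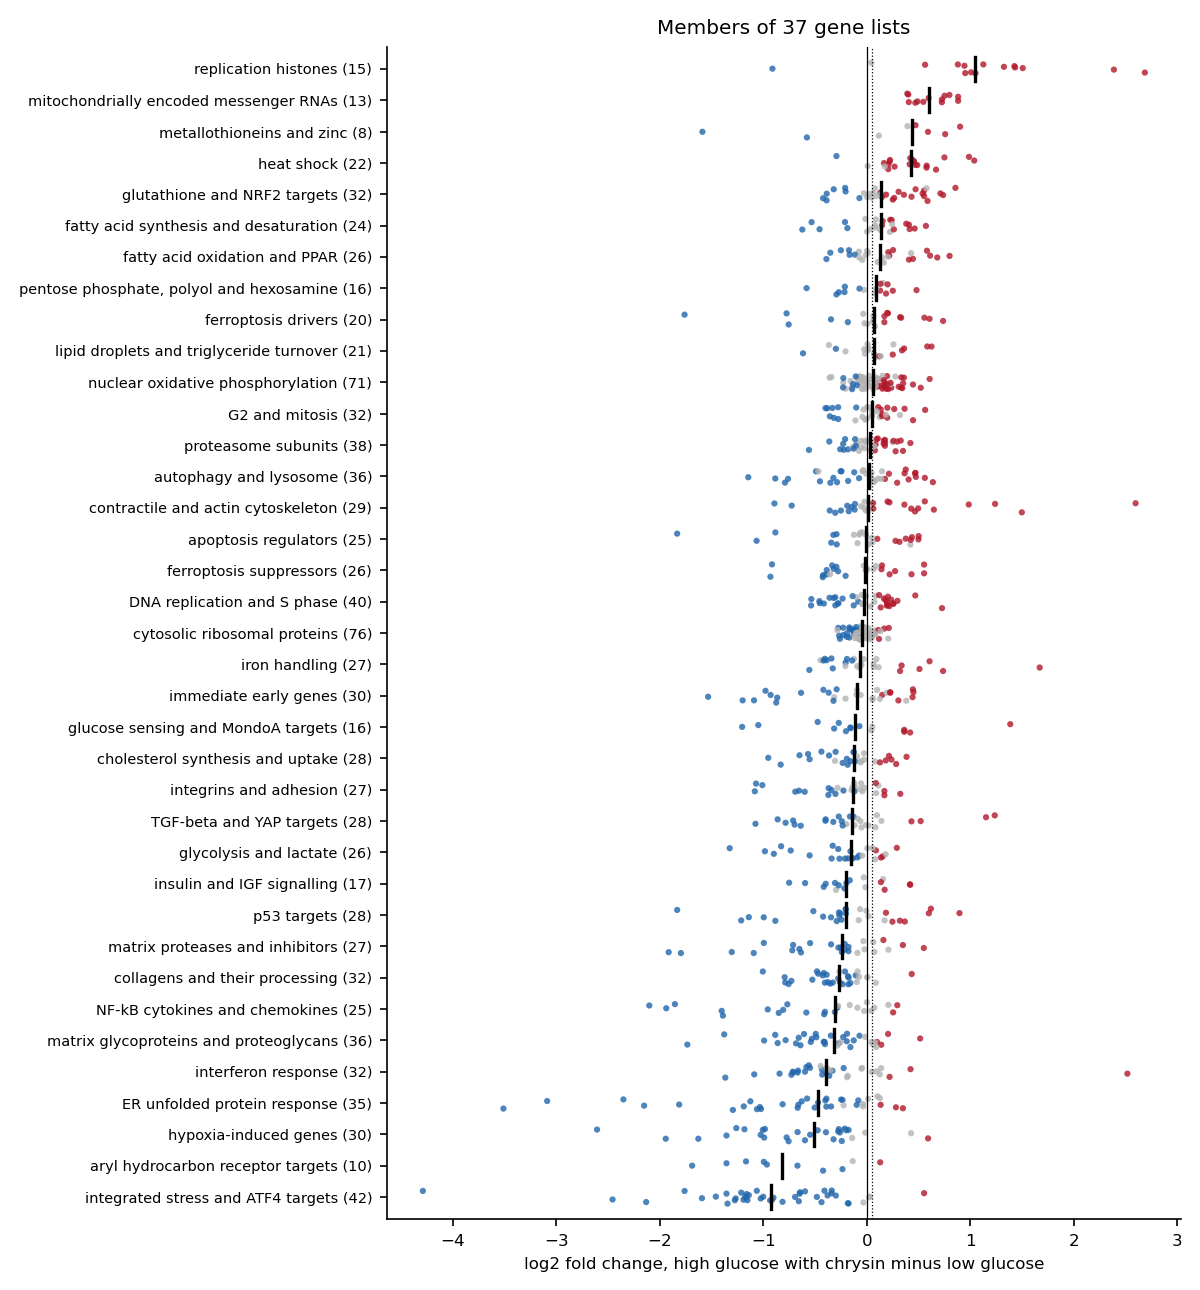
Log2 fold change of high glucose with chrysin against low glucose for each tested member of 37 gene lists, sorted by the list median (black bar). The dotted line is the median of all genes tested, 0.05; ATF4, aryl hydrocarbon receptor and hypoxia lists lie to its left, and heat shock, mitochondrially encoded and histone lists to its right.

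ER stress genes were among the largest falls. Of 35 genes of the ER unfolded protein response, 26 were lower with chrysin in high glucose than in low glucose, 3 were higher and 6 did not pass, with a median log2 fold change of -0.47. In high glucose against low glucose 28 fell and 3 rose (background 9.08% lower and 14.9% higher over all genes), with a median of -0.52. Chrysin against high glucose gave 15 higher and 10 lower (background 25.4% higher and 21.1% lower), with a median of 0.09. HSPA5, the main ER chaperone (BiP), lies on chromosome 9 from 125234853 to 125241330 on the minus strand (hg38). Its level was 1186, 1238 and 1282 FPKM in the low glucose libraries, 276, 277 and 285 FPKM in high glucose, and 239, 243 and 243 FPKM with chrysin. All chrysin libraries lay below all high glucose libraries, which in turn lay far below low glucose. The log2 fold change against low glucose was -2.35 ± 0.03 (SE, n = 3 against 3; 5.11-fold lower; limma adjusted p = 2.9e-12). High glucose alone differed from low glucose by -2.14, and chrysin from high glucose by a further -0.21 (limma adjusted p = 0.00017).

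HERPUD1, a membrane protein of ER-associated degradation, was at 415, 412 and 399 FPKM in low glucose and at 34.7, 34.5 and 37.0 FPKM with chrysin. That was an 11.4-fold lower level, with high glucose between the groups at 63.2, 65.6 and 68.2 FPKM. The difference was -3.51 ± 0.04 (SE), of which high glucose alone gave -2.63 (limma adjusted p = 1.3e-12 for chrysin against low glucose). XBP1, the transcription factor activated by IRE1 splicing, was at 124, 127 and 126 FPKM in low glucose and 55.8, 57.6 and 58.7 FPKM with chrysin. Its groups did not overlap, and the difference was -1.13 (limma adjusted p = 1.3e-09). DERL3, DNAJB9 and SDF2L1, which act in ER-associated degradation or as HSPA5 partners, fell by 3.09, 2.15 and 1.81 on the log2 scale; SMARCB1 overlaps DERL3 on the opposite strand. For SDF2L1 the chrysin group differed from high glucose by -0.06 (limma adjusted p = 0.28), and for the secreted protective factor MANF, at -1.29 against low glucose, by -0.07 (0.065). The 3 members that rose were TMED2 (0.13), SEC61B (0.28) and UFM1 (0.35), which serve ER export, translocation and UFMylation. The sensor ERN1 (IRE1) did not pass, at -0.22 (limma adjusted p = 0.12); it passed on recovered reads with limma-voom (0.042), with the 6 compared libraries alone (0.046), after correction for GC content and length (-0.33, 0.033) and without high glucose replicate 1 (0.043).

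Promoters of this list were searched for the ER stress element, CCAAT followed by CCACG with 9 bases of any kind between them, on either strand, in the 300 bases from 250 before to 50 after the RefSeq start (GRCh38.p14). It was present in 6 of 32 list promoters (18.8%) and in 22 of 27305 promoters of all genes (0.0806%). Of the 32 list promoters, 24 belonged to genes called lower with chrysin. The 6 genes with the element were HSPA5, HSP90B1, CALR, CANX, CRELD2 and XBP1, and all 6 were lower with chrysin than in low glucose. The 150 bases before the start are shown for 3 of them because they carry the element in a list that fell, with the match in capitals, 5′ to 3′ on the gene's strand. HSPA5 is chr9:125241344-125241493 (minus), XBP1 chr22:28800570-28800719 (minus) and CRELD2 chr22:49918484-49918633 (plus).
HSPA5: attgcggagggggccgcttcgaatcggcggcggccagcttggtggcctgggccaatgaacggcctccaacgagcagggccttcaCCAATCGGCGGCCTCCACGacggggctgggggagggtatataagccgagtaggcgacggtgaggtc
XBP1: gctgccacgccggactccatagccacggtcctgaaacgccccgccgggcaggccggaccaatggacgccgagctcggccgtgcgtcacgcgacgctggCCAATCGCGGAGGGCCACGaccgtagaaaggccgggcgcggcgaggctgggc
CRELD2: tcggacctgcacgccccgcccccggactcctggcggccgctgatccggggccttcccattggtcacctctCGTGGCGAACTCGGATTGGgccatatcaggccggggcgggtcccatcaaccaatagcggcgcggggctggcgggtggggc
The match starts 66 bases before the HSPA5 start and 52 before the XBP1 start; in CRELD2 it lies on the other strand, from 80 bases before the start. A match is a run of letters and not a measured binding site.

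The ATF4 list fell almost throughout. Of 42 targets of ATF4 and the integrated stress response, 38 were lower with chrysin, 1 was higher and 3 did not pass, with a median of -0.93. In high glucose alone 37 fell, with a median of -0.47, and in chrysin against high glucose 28 fell and 1 rose (background 21.1% lower and 25.4% higher), with a median of -0.29. DDIT3 (CHOP), the pro-death transcription factor of this pathway, lies on chromosome 12 from 57516588 to 57521737 (minus strand). It was at 109, 101 and 99.3 FPKM in low glucose, 9.75, 9.63 and 9.62 FPKM in high glucose and 5.11, 5.07 and 4.27 FPKM with chrysin. The 3 groups did not overlap. Against low glucose the chrysin group was 19.6-fold lower, a log2 fold change of -4.29 ± 0.07 (SE, n = 3 against 3; limma adjusted p = 2.1e-11), and against high glucose it was -0.94 (limma adjusted p = 1.5e-06). MARS and MBD6 overlap DDIT3 on the opposite strand, and no source used here says that the counting used strand.

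DDIT4 (REDD1), an inhibitor of mTORC1, was at 92.9, 95.2 and 92.6 FPKM in low glucose, 61.5, 58.4 and 58.7 FPKM in high glucose and 17.9, 15.8 and 16.3 FPKM with chrysin. Unlike HSPA5, most of this difference lay between the chrysin and high glucose libraries: -1.81 of -2.46. TRIB3, a pseudokinase induced by ATF4 and DDIT3, was at 85.0, 82.8 and 82.5 FPKM in low glucose and 19.1, 19.5 and 17.4 FPKM with chrysin (log2 fold change -2.13, limma adjusted p = 3.8e-10). High glucose alone, at 24.3, 23.0 and 22.8 FPKM, had already most of that fall. ATF4 itself went from 407, 395 and 408 FPKM to 248.5, 252 and 247 FPKM, a difference of -0.69. CHAC1, which degrades glutathione, fell by 1.76, asparagine synthetase ASNS by 1.59, the secreted STC2 by 1.36 and SESN2, a leucine sensor, by 1.21 on the log2 scale.

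The single member that rose was SLC7A11, the cystine importer of system xc-. It was at 17.1, 17.6 and 17.7 FPKM in low glucose, 10.8, 12.8 and 12.9 FPKM in high glucose and 25.9, 27.0 and 24.9 FPKM with chrysin. High glucose libraries were thus the lowest and chrysin libraries the highest, with no overlap. Against low glucose the log2 fold change was 0.55 (limma adjusted p = 5.3e-05), while high glucose alone gave -0.51. Its heavy chain SLC3A2 fell by 0.92. The motif of a C/EBP-ATF element, TGATGNAA on either strand, was in 11 of 36 list promoters (30.6%) against 1003 of all promoters (3.67%). The ASNS promoter (chr7:97872409-97872558, minus strand) is shown because its amino acid response element is a textbook ATF4 target. The capitals mark the match, which begins 68 bases before the start.
ASNS: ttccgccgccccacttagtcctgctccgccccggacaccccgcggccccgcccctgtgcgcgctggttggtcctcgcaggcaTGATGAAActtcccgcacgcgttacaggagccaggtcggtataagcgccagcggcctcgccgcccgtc

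Hypoxia-induced genes were lower with chrysin although high glucose alone moved many of them up. Of 30 tested, 25 were lower with chrysin than in low glucose, 1 was higher (the hydroxylase JMJD6, 0.59) and 4 did not pass, with a median of -0.51. In high glucose alone 15 rose and 6 fell, with a median of 0.14. Chrysin against high glucose gave 23 lower and 3 higher, with a median of -0.76. NDRG1, a hypoxia and differentiation marker, was at 70.6, 67.8 and 73.6 FPKM in low glucose, 112, 109 and 109 FPKM in high glucose and 12.8, 11.9 and 9.15 FPKM with chrysin. The order was high glucose, low glucose, chrysin, without overlap. Its log2 fold change was -2.61 against low glucose (limma adjusted p = 8.6e-09) and -3.24 against high glucose. CA9, the carbonic anhydrase most tightly tied to HIF1, followed the same order at -1.94 against low glucose.

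VEGFA, the angiogenic growth factor, was at 60.3, 56.0 and 60.2 FPKM in low glucose and 18.2, 19.2 and 18.7 FPKM with chrysin. It was 3.09-fold lower with chrysin (log2 fold change -1.63, limma adjusted p = 1.1e-09), and lower in high glucose alone as well (-0.56). BNIP3, a mitophagy receptor, was at 67.5, 62.4 and 65.1 FPKM in low glucose, 92.1, 92.9 and 92.5 FPKM in high glucose and 28.3, 29.6 and 27.2 FPKM with chrysin. High glucose libraries were highest and chrysin libraries lowest. The fall against low glucose was -1.18 (limma adjusted p = 5.1e-09). The core of the hypoxia response element, ACGTG on either strand, was in 15 of 24 list promoters (62.5%) and in 5900 of all promoters (21.6%). The BNIP3 promoter (chr10:131981924-131982073, minus strand) is shown because its gene is described above. Its match, in capitals, is a palindrome that holds ACGTG on both strands from 134 bases before the start, as other members of the list also have.
BNIP3: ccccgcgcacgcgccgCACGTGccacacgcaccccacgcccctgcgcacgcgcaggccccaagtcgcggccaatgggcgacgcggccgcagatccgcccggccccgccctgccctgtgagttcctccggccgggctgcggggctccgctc

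Glycolysis genes formed a separate list that shared no member with the hypoxia list. Of 26 genes of glucose uptake, glycolysis and lactate, 17 were lower with chrysin, 4 were higher and 5 did not pass, with a median of -0.15, whereas 13 rose and 2 fell in high glucose alone. LDHA, which makes lactate, was at 822, 849.7 and 846 FPKM in low glucose, 1062, 1036 and 1036 FPKM in high glucose and 576, 573 and 567 FPKM with chrysin. The difference from low glucose was -0.55 (limma adjusted p = 1.9e-08), opposite to the 0.32 of high glucose alone. The glucose transporter SLC2A1 fell by 0.90, hexokinase HK2 by 0.98 and the pyruvate dehydrogenase kinase PDK1 by 1.33 on the log2 scale. High glucose alone differed from low glucose by 0.03 for SLC2A1 and 0.05 for PDK1. PDHA1, a subunit of pyruvate dehydrogenase itself, rose by 0.29. PFKFB4, a kinase that sets the level of fructose 2,6-bisphosphate, did not pass, with a 95% interval of -0.02 to 0.38, while it was higher by 1.11 in high glucose alone; without low glucose replicate 3 it passed at 0.26 (limma adjusted p = 0.031).

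Among 16 genes of glucose sensing and MondoA targets, 4 were higher with chrysin and 9 lower, with a median of -0.11. TXNIP, which limits glucose uptake and is the strongest MondoA target, lies on chromosome 1 from 145992435 to 145996600 (minus strand). It was at 5.92, 5.72 and 6.07 FPKM in low glucose, 79.2, 78.2 and 80.1 FPKM in high glucose and 16.4, 15.3 and 17.0 FPKM with chrysin. Chrysin libraries lay between the other groups and nearer to low glucose. They remained 2.61-fold above low glucose (log2 fold change 1.39 ± 0.05 SE, limma adjusted p = 6.8e-09), and were 2.25 on the log2 scale below high glucose. Its paralog ARRDC4 was at 0.32, 0.32 and 0.46 FPKM in low glucose and 0.78, 0.51 and 0.58 FPKM with chrysin, a difference of 0.37 that did not pass (limma adjusted p = 0.094). On recovered reads with limma-voom it was 0.74 and passed (adjusted p = 0.016). ARRDC3 and the repressor HBP1 fell by 1.21 and 1.05. Among the 16 genes of the pentose phosphate, polyol and hexosamine routes, 6 rose and 6 fell, all by less than 0.6; without low glucose replicate 2 only 3 were called lower.

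**Figure D3:**
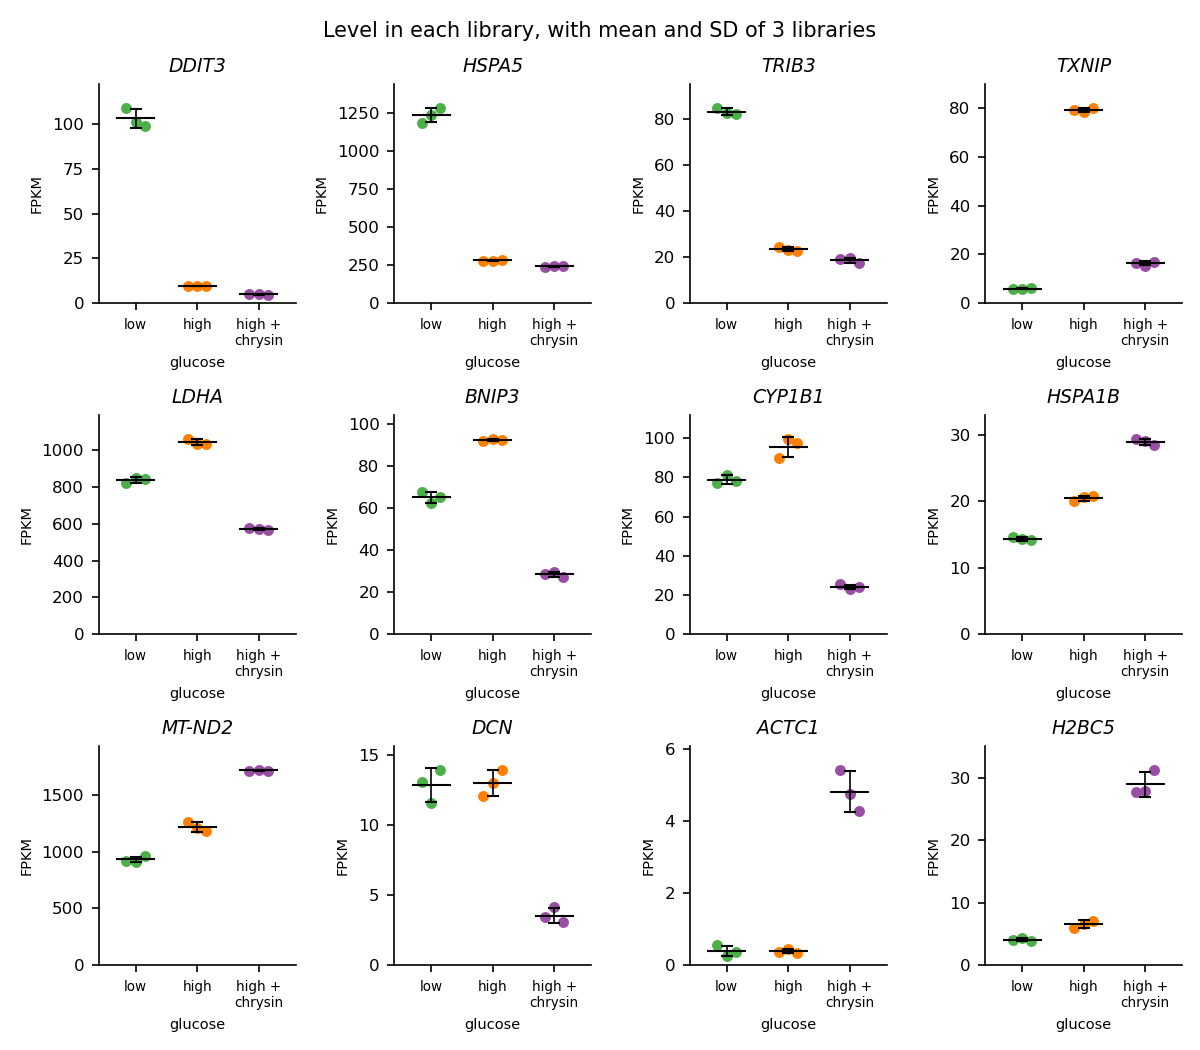
FPKM of 12 genes in each of the 9 libraries (points), with the group mean and SD (bars; n = 3 per group), each panel with its own axis from 0. DDIT3, HSPA5 and TRIB3 fall in high glucose with and without chrysin; LDHA and BNIP3 are highest in high glucose and lowest with chrysin; TXNIP lies between the groups, and H2BC5 and ACTC1 are highest with chrysin.

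Most genes of the aryl hydrocarbon receptor list were lower with chrysin. The receptor is a ligand-activated factor that binds planar aromatic compounds. Of 10 tested, 8 fell, 1 rose (NQO1, 0.13) and AHRR did not pass, with a median of -0.82. The 10 include the receptor gene AHR and its partner ARNT beside targets. High glucose alone gave 4 higher and 3 lower. CYP1B1, a monooxygenase and classical target, was at 77.1, 81.2 and 78.3 FPKM in low glucose, 89.9, 99.7 and 97.5 FPKM in high glucose and 25.4, 23.2 and 23.8 FPKM with chrysin. Only the chrysin libraries were low, by 1.69 on the log2 scale against low glucose (3.22-fold; limma adjusted p = 1.3e-09). RMDN2 and CYP1B1-AS1 overlap it on the other strand. The receptor gene AHR itself fell by 0.97 and TIPARP, a feedback repressor, by 0.67. CYP1A1, the best known target, stayed below the level filter, with means of 0.41 FPKM in low glucose and 0.38 FPKM with chrysin. STC2 is in this list, the ATF4 list and the hypoxia list, and SLC7A5 is in this list and the ATF4 list. The core of the response element, GCGTG, was in 7 of 9 list promoters (77.8%) and in 9919 of all promoters (36.3%). Of those 7 genes, 5 were lower with chrysin, NQO1 was higher and AHRR did not pass.

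Metallothioneins, small metal-binding proteins, did not move as a block: of 8 metallothionein and zinc genes 4 rose and 2 fell. MT2A was at 448, 429 and 422 FPKM in low glucose and 138, 140.1 and 153 FPKM with chrysin, a log2 difference of -1.59 (limma adjusted p = 6.7e-09). High glucose libraries, at 516, 464 and 443 FPKM, did not pass against low glucose. MT1E fell by 0.58, while MT1F rose by 0.90, the metal sensor MTF1 by 0.59 and the zinc exporter SLC30A1 by 0.47. Metallothionein genes are near copies of each other, so reads may be split between them.

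Heat shock genes rose. Of 22 tested, 19 were higher with chrysin, 1 was lower (the small chaperone HSPB1, -0.29) and 2 did not pass, with a median of 0.43. In high glucose alone 12 rose and 1 fell, with a median of 0.16, and chrysin against high glucose raised 16. HSPA1B, the stress-inducible HSP70, was at 14.7, 14.3 and 14.1 FPKM in low glucose, 20.1, 20.6 and 20.7 FPKM in high glucose and 29.4, 29.1 and 28.4 FPKM with chrysin. The order was the same in all libraries without overlap, and the log2 fold change was 0.99 (limma adjusted p = 2.4e-08). HSPA1A, which is nearly identical in sequence and may share its reads, rose by 1.04. DNAJA1, a cytosolic HSP70 partner, went from 202, 209.9 and 213 FPKM to 352, 349 and 349.8 FPKM, a difference of 0.75. DNAJB1 rose by 0.67 and the HSP70-HSP90 adaptor STIP1 by 0.49.

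The heat shock element, TTC, GAA and TTC in that order with 2 bases between neighbours, on either strand, was in 4 of 20 list promoters (20%) and in 133 of all promoters (0.487%). Of the 20 promoters searched, 18 belonged to genes called higher with chrysin. The 4 genes with the element were HSPA8, DNAJA1, DNAJB6 and CHORDC1, and all were higher with chrysin. Of these, 2 are shown because they are the constitutive HSP70 and a cochaperone of HSP90 with overlapping matches: HSPA8 (chr11:123062137-123062286, minus strand) and CHORDC1 (chr11:90223050-90223199, minus strand). Capitals mark the span of the matches.
HSPA8: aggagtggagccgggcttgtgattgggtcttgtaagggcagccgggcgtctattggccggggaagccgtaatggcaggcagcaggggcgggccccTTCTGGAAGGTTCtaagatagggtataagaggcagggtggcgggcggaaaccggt
CHORDC1: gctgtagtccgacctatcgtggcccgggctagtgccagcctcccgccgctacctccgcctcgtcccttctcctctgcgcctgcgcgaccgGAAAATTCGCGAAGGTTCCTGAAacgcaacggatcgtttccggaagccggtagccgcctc
HSPA8 was at 1401, 1404 and 1397 FPKM in low glucose and 1686, 1670 and 1703 FPKM with chrysin, a rise of 0.27. CHORDC1 was at 26.4, 26.2 and 25.3 FPKM and 35.2, 38.5 and 34.8 FPKM, a rise of 0.47 that high glucose alone did not have (-0.07). In HSPA8 the match begins 55 bases before the start, and in CHORDC1 3 matches overlap from 60 bases before it.

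Other arms of protein turnover split. Of 38 proteasome subunits, 15 were higher and 10 lower with chrysin, all changed by less than 0.6, and the split turned to 10 higher and 14 lower with median-of-ratios scaling, 10 and 15 after correction for GC content and length, and 10 and 10 without low glucose replicate 3. Of 36 autophagy and lysosome genes, 11 rose and 14 fell; without chrysin replicate 2 it was 12 and 11, and without mitochondrially encoded genes 12 and 12. GABARAPL1, an autophagosome protein, went from 74.2, 72.1 and 78.1 FPKM to 33.4, 34.3 and 32.8 FPKM (-1.15; limma adjusted p = 6.7e-09). The initiating kinase ULK1 fell by 0.88 and WIPI1 by 0.79, whereas the lysosomal calcium channel MCOLN1 rose by 0.64 and the proton pump subunit ATP6V0D1 by 0.56.

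Ferroptosis is a form of cell death driven by iron and oxidised phospholipids; GPX4 with glutathione opposes it, and SCD makes monounsaturated fatty acids that resist oxidation. Of 26 suppressor genes, 7 were higher with chrysin and 11 lower, with a median of -0.02. Of 20 driver genes, 9 were higher and 5 lower, with a median of 0.07. Over all genes tested 30.2% were higher and 21.6% lower. SCD lies on chromosome 10 from 100347124 to 100364834 (plus strand). It was at 150.5, 159 and 161 FPKM in low glucose, 143, 154 and 150.5 FPKM in high glucose and 177, 173 and 170.4 FPKM with chrysin. All 3 chrysin libraries exceeded all low glucose libraries, by 1.11-fold (log2 fold change 0.15 ± 0.04 SE, 95% interval 0.07 to 0.22; limma adjusted p = 0.0049). High glucose alone differed from low glucose by -0.07 and did not pass (limma adjusted p = 0.19), and chrysin exceeded high glucose by 0.22 (0.0005).

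GPX4, the phospholipid peroxidase, was at 134, 127 and 127 FPKM in low glucose and 95.7, 105 and 107 FPKM with chrysin. It was lower in all 3 chrysin libraries, by 0.34 on the log2 scale (limma adjusted p = 0.00028). ACSL4, which loads polyunsaturated fatty acids into phospholipids, was at 95.5, 96.0 and 99.3 FPKM in low glucose and 109, 115 and 112 FPKM with chrysin, a rise of 0.20 (limma adjusted p = 0.0052). In high glucose it was at 79.3, 87.8 and 92.6 FPKM, below both. GCH1, which makes tetrahydrobiopterin, fell by 0.93, while GCLM, a subunit of glutathione synthesis, rose by 0.55 and thioredoxin reductase TXNRD1 by 0.43.

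Iron genes moved in both directions, 6 higher and 9 lower of 27, with 55.6% called beside 51.8% of all genes tested. TFRC, the transferrin receptor, was at 149, 161 and 156 FPKM in low glucose, 169.6, 183 and 184 FPKM in high glucose and 232, 242 and 237 FPKM with chrysin. The groups rose in that order without overlap, and the difference from low glucose was 0.61 (limma adjusted p = 4.8e-07). The ferritin chains, which store iron, were lower: FTH1 went from 1856, 1810 and 1881 FPKM to 1608, 1620 and 1584 FPKM (-0.21; limma adjusted p = 0.00021), and FTL fell by 0.39. BEST1 overlaps FTH1 on the other strand. HMOX1, heme oxygenase, rose from 17.1, 18.7 and 17.8 FPKM to 32.7, 28.6 and 29.2 FPKM (0.74; limma adjusted p = 7.3e-06), and its repressor BACH1 fell by 0.76. TF, transferrin, was listed at 0 in all low glucose libraries and at 1.001, 0.937 and 1.368 FPKM with chrysin, from 43, 41 and 71 reads. TF thus passed the level filter through the chrysin group only. Of 32 genes of glutathione metabolism and NRF2 targets, 16 rose and 7 fell, with a median of 0.14. The antioxidant element core TGACNNNGC was in 5 of 23 promoters of the list searched (21.7%) and in 3702 of all promoters (13.6%). Of those 5 genes, 3 were higher with chrysin, and ME1 and PGD did not pass.

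Of 24 genes of fatty acid synthesis, 10 were higher and 5 lower, beside 30.2% and 21.6% of all genes, with a median of 0.14 (0.08 after correction for GC content and length). FASN, the synthase, went from 299, 301 and 295.5 FPKM to 399.8, 378 and 390.0 FPKM (0.38; limma adjusted p = 3.6e-06). ACACA, which makes malonyl-CoA, rose by 0.46 and the desaturase SCD5 by 0.41, while the polyunsaturated desaturases FADS1 and FADS3 fell by 0.62 and 0.53. Of 28 genes of cholesterol synthesis and uptake, 15 were lower and 6 higher: HMGCS1 fell by 0.57, INSIG1 by 0.65 and TM7SF2 by 0.95. Of 26 genes of fatty acid oxidation, 9 rose and 6 fell, with 57.7% called beside 51.8% of all genes tested. The mitochondrial carnitine carrier SLC25A20 went from 6.70, 5.39 and 5.71 FPKM to 11.1, 9.81 and 11.1 FPKM (0.80; limma adjusted p = 3.3e-05), and CPT2 rose by 0.61. The triglyceride lipase PNPLA2 fell by 0.62.

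All 13 mitochondrially encoded mRNAs were higher with chrysin, with a median of 0.60. In high glucose alone 8 rose, with a median of 0.33, and in chrysin against high glucose 12. MT-ND2, a complex I subunit, was at 923, 916 and 963 FPKM in low glucose, 1267, 1210.0 and 1184 FPKM in high glucose and 1717, 1726 and 1720.0 FPKM with chrysin. The 3 groups were ordered without overlap, and the difference from low glucose was 0.88 (limma adjusted p = 3.6e-09). Nuclear genes of oxidative phosphorylation moved less, with 42.3% called beside 51.8% of all genes tested. Of the 71, 24 rose and 6 fell, with a median of 0.06. That lean depends on scaling, since median-of-ratios scaling gave 15 higher and 13 lower, and the correction for GC content and length 16 and 16. UQCRFS1 of complex III (0.52) and NDUFAB1 of complex I (0.61) were among those that rose. Of 76 cytosolic ribosomal proteins, 20 were lower and 5 higher, with a median of -0.05, and RPL3 fell by 0.28. Over all genes tested 21.6% were lower and 30.2% higher. These counts depend on scaling too, since median-of-ratios scaling and the correction for GC content and length each gave 39 lower and 1 higher. In all, 32.9% of these ribosomal genes were called, beside 51.8% of all genes tested. Without high glucose replicate 1, 33 of them were called lower, and without chrysin replicate 1, 13; the 5 higher ranged from 2 to 8 when single libraries were left out.

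Extracellular matrix genes were mostly lower with chrysin. Of 32 collagens and collagen-processing genes, 24 fell and 1 rose, with a median of -0.27, and of 36 matrix glycoproteins and proteoglycans, 25 fell and 4 rose, with a median of -0.32. COL1A1, the main fibrillar collagen chain, was at 3720, 3840 and 3560 FPKM in low glucose, 5307, 5204 and 4903 FPKM in high glucose and 2956, 2930 and 2813 FPKM with chrysin. High glucose libraries were highest and chrysin libraries lowest. Against low glucose the difference was -0.35 (limma adjusted p = 1.4e-05), whereas high glucose alone gave 0.47. COL3A1 fell by 0.79, the crosslinking enzyme LOX by 1.01 and fibronectin FN1 by 0.64. The basement membrane chain COL4A1 was the collagen that rose, by 0.43.

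DCN (decorin), a small proteoglycan that binds collagen, was at 13.1, 11.5 and 13.9 FPKM in low glucose, 12.02, 12.97 and 13.91 FPKM in high glucose and 3.39, 4.11 and 3.05 FPKM with chrysin. Low and high glucose overlapped and chrysin libraries lay below both. The log2 fold change was -1.73 ± 0.11 (SE, limma adjusted p = 3.6e-07; 3.33-fold lower). LUM (lumican) fell by 1.38 with the same pattern. Among 27 matrix proteases and inhibitors, 18 fell and 3 rose. The aggrecanases ADAMTS5 and ADAMTS1 fell by 1.92 and 1.80, and the gelatinase MMP2 by 1.31. Of 27 integrin and adhesion genes, 12 fell and 4 rose, among them ITGA11, a collagen receptor, at -0.65.

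The fibroblast markers overlap with these lists: 11 of 14 tested were lower with chrysin and 2 higher (THY1, 0.37, and S100A4, 0.61), with a median of -0.50. FAP, a surface protease of activated fibroblasts, was at 63.0, 63.7 and 64.5 FPKM in low glucose, 52.6, 53.3 and 55.04 FPKM in high glucose and 19.1, 18.5 and 20.1 FPKM with chrysin. The chrysin libraries lay well below both other groups, and the difference was -1.70 (limma adjusted p = 3.8e-10). In bulk RNA fewer cells of a kind and less RNA per cell cannot be told apart. Of the other marker sets, the summed level of 9 endothelial markers was 4.77 to 5.41 FPKM in low glucose and 2.33 to 2.72 FPKM with chrysin, with TIE1 lower. The sum of 10 leukocyte markers was 3.40 to 3.63 FPKM and 2.94 to 3.33 FPKM, with AIF1, CD3E and TYROBP listed at 0. Their part in the matrix result was not tested.

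Contractile and actin genes moved in both directions. Of 29 tested, 14 rose and 10 fell, with a median of 0.01. ACTC1, cardiac alpha-actin, was at 0.55, 0.26 and 0.35 FPKM in low glucose, 0.37, 0.45 and 0.34 FPKM in high glucose and 5.43, 4.77 and 4.28 FPKM with chrysin. Only the chrysin libraries stood above 1 FPKM, and the log2 fold change was 2.597 (limma adjusted p = 4.6e-07, 6.05-fold on the scale with the pseudocount). ACTC1 passed the level filter through the chrysin group only. The smooth muscle actins ACTA2 and ACTG2 rose by 1.498 and 1.24, and the myosin light chain MYL9 by 0.65. Several other genes overlap ACTA2 on the opposite strand. The cytoplasmic actins ACTG1 and ACTB fell by 0.36 and 0.18, and the coactivator MYOCD by 0.89. Of the cardiomyocyte markers that could be tested, 5 in number, NPPB (B-type natriuretic peptide) fell by 0.89 and the calcium pump ATP2A2 by 0.46.

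Among 28 TGF-beta and YAP targets, 14 fell and 4 rose. ID3, an inhibitor of differentiation that BMP signals induce, was at 69.9, 71.5 and 67.9 FPKM in low glucose, 76.9, 72.0 and 72.0 FPKM in high glucose and 161, 168 and 167 FPKM with chrysin. Chrysin libraries alone were high, by 1.24 (limma adjusted p = 1.6e-09). ID1 rose by 1.15 and SMAD6, also a BMP target, by 0.43, though the SMAD6 call was lost without low glucose replicate 2 (0.32, limma adjusted p = 0.092), chrysin replicate 1 (0.41, 0.067) or chrysin replicate 3 (0.39, 0.079). The YAP target CCN1 fell by 0.78 and CCN2 by 0.86, while ANKRD1 rose by 0.52 although high glucose alone gave -1.21.

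Inflammatory genes were lower with chrysin. Of 25 NF-kB cytokine and chemokine genes, 15 fell and 2 rose (RELA, 0.25, and CSF1, 0.29, the latter not called without chrysin replicate 3 at 0.24, limma adjusted p = 0.055), with a median of -0.31. High glucose alone gave 5 higher and 4 lower, and in chrysin against high glucose 18 fell. IL6 was at 13.6, 14.4 and 13.8 FPKM in low glucose, 11.4, 9.62 and 10.7 FPKM in high glucose and 2.88, 2.64 and 3.07 FPKM with chrysin. Chrysin libraries were 4.29-fold below low glucose (log2 fold change -2.10, limma adjusted p = 1.1e-08). IL1B fell by 1.94 and the neutrophil chemokine CXCL8 by 1.39. PTX3, a secreted pentraxin, fell by 1.85, but high glucose alone already gave -1.54. STEAP1B overlaps IL6 on the other strand.

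Of 32 interferon response genes, 18 fell and 3 rose, with a median of -0.39. IFI35, an interferon-induced protein, was at 31.0, 33.0 and 34.9 FPKM in low glucose and 21.36, 20.04 and 20.22 FPKM with chrysin, a log2 difference of -0.67 (limma adjusted p = 1.1e-06). Its groups did not overlap. IFI27 was the exception in size, at 0.21, 0.55 and 0.68 FPKM in low glucose and 5.49, 6.16 and 3.63 FPKM with chrysin, from 3, 7 and 9 reads against 70, 80 and 56. Its log2 fold change was 2.52 (limma adjusted p = 6.9e-06), and it passed the level filter through the chrysin group only. Of 30 immediate early genes, 12 fell and 7 rose. The transcription factor EGR1 fell by 1.53 and MYC by 1.09, and DUSP6, a phosphatase induced by ERK, by 0.87.

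Replication histone genes showed the highest list median, 1.05, with 13 of 15 higher and 1 lower; the lower call was lost without low glucose replicate 1 or 3 or chrysin replicate 3. In high glucose alone 8 rose, with a median of 0.47. H2BC5 lies on chromosome 6 from 26158146 to 26171349, and AL353759.1 overlaps it on the opposite strand. It was at 3.95, 4.36 and 3.91 FPKM in low glucose, 5.89, 6.61 and 7.11 FPKM in high glucose and 27.7, 27.9 and 31.3 FPKM with chrysin. The chrysin libraries lay far above the others, 6.44-fold over low glucose (log2 fold change 2.69, limma adjusted p = 2.1e-09). H2AC6 rose by 2.39 and H2BC12 by 1.51. Most replication histone mRNAs end in a stem loop instead of a polyA tail, and the libraries were of polyA RNA. RNA5-8SN1, a ribosomal RNA without a polyA tail, moved with them, from 6, 6 and 5 reads to 49, 52 and 80 reads. The mitochondrial tRNA MT-TF also rose, from 1.35, 1.55 and 0.74 FPKM to 6.14, 6.03 and 8.26 FPKM. That rests on 2, 2 and 1 reads against 8, 8 and 13. MT-TF was already higher in high glucose alone, at 6, 7 and 4 reads (log2 fold change 1.34, limma adjusted p = 0.001). Their part in the histone result was not tested.

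The DNA replication list and the mitosis list held similar numbers of higher and lower calls. In the DNA replication and S phase list 75% of genes were called, beside 51.8% of all genes tested. Of 40 DNA replication and S phase genes, 15 rose and 15 fell: the flap nuclease FEN1 rose from 102, 97.0 and 98.3 FPKM to 161, 161 and 170.4 FPKM (0.73), and the ribonucleotide reductase subunit RRM2 fell from 304, 309 and 309 FPKM to 211, 215 and 209 FPKM (-0.54). Of 32 G2 and mitosis genes, 10 rose and 8 fell (8 and 9 with median-of-ratios scaling), whereas high glucose alone raised 17. With chrysin 56.2% of them were called, beside 51.8% of all genes tested. BIRC5 (survivin) rose by 0.56 and the kinase AURKA by 0.45, and CDC25B and KIF20A fell by 0.38 and 0.32. Of 28 p53 targets, 16 fell and 7 rose, with a median of -0.20; the 7 became 4 without low glucose replicate 2 or without chrysin replicate 2. The BH3-only death genes BBC3 (PUMA), PMAIP1 (NOXA) and BMF fell by 1.83, 0.88 and 1.07, while BCL2L11 (BIM) rose by 0.50. TIGAR, a fructose bisphosphatase, rose by 0.90 and CDKN1A did not pass. Over 25 apoptosis regulators 8 rose and 7 fell, with 60% called beside 51.8% of all genes tested.

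Among 17 insulin and IGF signalling genes, 9 fell and 4 rose. IGFBP6 and IGFBP2, secreted IGF binding proteins, fell by 0.75 and 0.60, IGFBP5 rose by 0.42, and the adaptor IRS2 fell by 0.42 where high glucose alone gave -0.61.

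Other large changes lay outside the lists. SGK2, a serum and glucocorticoid regulated kinase, was at 0.34, 0.26 and 0.12 FPKM in low glucose and 4.46, 5.18 and 5.48 FPKM with chrysin, from 9, 6 and 3 reads against 103, 122 and 153 reads. Its log2 fold change was 2.90 (limma adjusted p = 3.1e-07). GUCA1B, a guanylate cyclase activator of photoreceptors, rose by 2.58 from a similarly low level. SGK2 and GUCA1B passed the level filter through the chrysin group only. MAP3K7CL was at 30.7, 28.6 and 30.5 FPKM in low glucose and 5.70, 5.96 and 5.43 FPKM with chrysin, 4.92-fold lower (-2.30; limma adjusted p = 1.7e-09). TCP11L2 fell by 2.19. MIR616 lies inside DDIT3 and fell with it by 3.88, and MIR4746 rose by 2.86 on 9, 2 and 2 reads against 25, 28 and 37; as host genes and precursors share reads in such a library, neither value measures a mature miRNA.

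**Figure D4:**
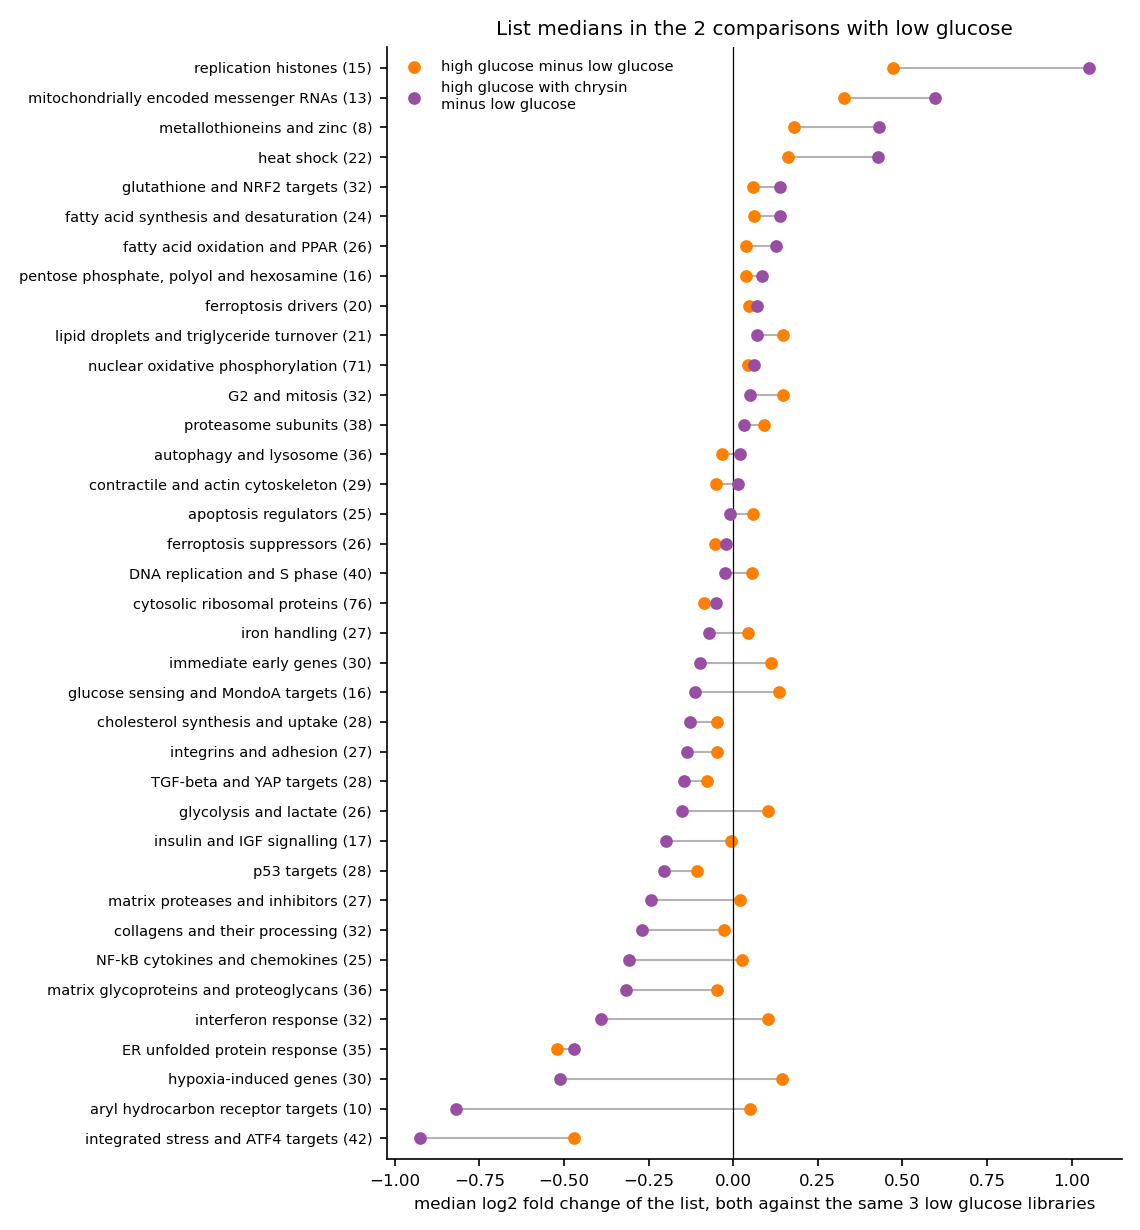
Median log2 fold change against low glucose of each of the 37 lists, in high glucose alone (orange) and in high glucose with chrysin (purple), joined by a line. Hypoxia, glycolysis and NF-kB medians are above 0 in high glucose and below 0 with chrysin. The NF-kB median in high glucose is only 0.026, beside 0.021 over all genes tested. The ER list has medians of -0.52 and -0.47. Medians of the histone, heat shock and mitochondrially encoded lists are higher with chrysin than in high glucose.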

How the data were processed

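PolyA RNA of 9 AC16 libraries, 3 per group, was measured, and 6 enter the comparison. The authors deposited 1 table of FPKM values for 60671 genes; the unit was read from the values and the file headers, and per the submitters' processing notes the tools were HTSeq 0.13.5, StringTie 2.2.1, fastp 0.23.4 and HISAT2 2.2.1 on hg38, with no roles given. FPKM are not counts. Since the deposited FPKM are whole multiples of the worth of 1 read, reads were recovered for 28230 of 28230 genes above 0 in at least 2 libraries (largest distance from a whole read 4.5e-05), and used for depth and for 1 alternative.

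Values were taken as log2(FPKM + 0.5), and limma 3.58.1 in R 4.3.3 (moderated test with an intensity trend, 1 fit over all 9 libraries) was applied to the 16760 genes whose mean reached 0.5 FPKM in either group. A gene was called at a Benjamini-Hochberg adjusted p under 0.05 over all of them. On this scale with a pseudocount the fold change of a low gene is understated. An exact permutation test of 3 against 3 cannot go below p = 0.1, so none was used. The script was tested on simulated data.

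The naming rule took 189 genes, of which the text describes those its lists turn on: the 12 most raised and the 12 most lowered called genes (mean 1 or more on the log2 scale, unique symbol not clone-based, groups not overlapping), 13 fixed genes, the 4 members of each list that had the lowest p, and called cell type markers. Further list members were named after their values were seen. The members and the 43 gene lists were chosen with earlier results of these data known. Positions are from GENCODE 29 and promoters from RefSeq GRCh38.p14, for 27305 genes by symbol, using the first listed start. The 21 alternatives covered the pseudocount, filter, scaling, GC content and length, voom on reads, a replicate block, fewer libraries and leaving out each library.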

Additional observations from a re-analysis of the deposited data

How the results depend on the processing

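The count of 8689 called genes (5065 higher, 3624 lower) stayed within 1.5 times under every alternative except a minimum absolute log2 fold change of 1, which left 729 genes, 455 higher and 274 lower. Leaving out each library in turn gave 7738 to 8976 calls, with 4501 to 5201 higher and 3237 to 3775 lower. Scaling moved the balance: 58.3% of calls were higher as reported, 50.6% with median-of-ratios scaling (4344 higher, 4248 lower; median over all genes 0.01) and 49.7% after correction for GC content and length (4300 higher, 4346 lower). Small list medians follow that shift. The ER, ATF4, hypoxia, heat shock, histone, NF-kB, interferon and collagen lists had more calls in their main direction than against it under each of the 21 alternatives, though with a minimum fold change the heat shock and collagen lists had only 1 call each. Same-numbered libraries did not deviate together (correlations -0.070 to 0.024). That cannot show whether same-numbered libraries shared a culture or a day, which no label states. With a replicate block 8458 genes were called. Of 216 called genes that the text or the naming rule holds, 213 stayed called in each alternative that tested them, other than the minimum fold change, which was not applied to single genes; the filter at 5 FPKM tested fewer of them (204 of 232, uncalled genes included). CSF1 was not called without chrysin replicate 3 (adjusted p = 0.055), and SMAD6 was not called with no level filter (0.066) or without low glucose replicate 2 (0.092), chrysin replicate 1 (0.067) or chrysin replicate 3 (0.079). PDGFRA was not called with no level filter (adjusted p = 0.06), without low glucose replicate 3 (0.053) or without chrysin replicate 2 (0.071). The leukocyte marker PTPRC, not called at a log2 difference of 0.05, ranged from -0.069 (without low glucose replicate 3) to 0.25 (without low glucose replicate 2) and was also below 0 without low glucose replicate 1 (-0.03). Genes near the level filter rest on few reads. Intervals cover only the spread among the 3 libraries of a group, estimated jointly over the 3 groups.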
